A study of Mus musculus with 15 samples.

Results

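The nuclear-encoded subunits of the mitochondrial respiratory chain and the ATP synthase were compared over 4 sections of the mouse intestine and the liver. A gene was a member where its symbol starts with Nduf, then a, b, c, s or v and a digit (complex I), is Sdha, Sdhb, Sdhc or Sdhd (complex II), starts with Uqcr (complex III), starts with Cox and a digit of the cytochrome oxidase series followed by a letter (complex IV), or starts with Atp5 (complex V). This took in 84 of the 23349 gene symbols measured: 37 for complex I, 4 for complex II, 8 for complex III, 18 for complex IV and 17 for complex V. The tissues were duodenum, jejunum, ileum, large intestine and liver of male wild-type C57BL/6 mice between 2 and 3 months old, with 3 libraries per tissue and 15 in all. Livers were taken without the gallbladder and intestines after flushing, and the labels mention no step that parted the mucosa from the muscle wall, so a library may hold several cell types. A library is called by its tissue with its title's number, such as jejunum 24. Some numbers, such as 24 and 27, recur in every tissue, so libraries of different tissues may share a mouse. The main fit takes the 15 libraries as independent, and a fit with a block per number is given at the end. Whether 3 libraries of 1 tissue stand for 3 animals is not said in the labels, and p-values here reflect variation among samples that may be technical.

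The respiratory chain moves electrons through the inner mitochondrial membrane and stores their energy as a proton gradient. Complex I takes electrons from NADH and complex II takes them from succinate, complex III passes them to cytochrome c, complex IV hands them to oxygen, and complex V spends the gradient on making ATP. Absorptive cells of the gut use this ATP for nutrient transport and hepatocytes use it for glucose and urea synthesis. The subunits that mitochondrial DNA encodes were not analysed here.

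Values were FPKM, the fragments of a gene scaled to its transcript length and to the fragments of its library, so levels can be set side by side between genes. Read depth cannot be read from such values, so counting intervals are left out. Of the 84 genes, 81 passed the filter for testing, a level of 1 FPKM or more in 3 or more libraries, among 13757 genes that did so. The 3 below that level were all complex IV isoforms: Cox7b2 and Cox8c, isoforms known from testis, were listed at 0 in all 15 libraries, and Cox6a2, the heart and skeletal muscle isoform, reached 0.803 FPKM at most. Differences below are on the log2(FPKM + 1) scale, which understates changes of genes of low level, and a gene was called higher or lower where limma's p, adjusted by the Benjamini-Hochberg method over all genes tested, was under 0.05.

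Liver and gut markers followed the tissue labels, but 2 libraries stood apart within the small intestine. Summed over 8 hepatocyte markers the level was 159 to 342 FPKM in intestinal libraries, against 51900 to 56280 FPKM in liver libraries. Jejunum 24 had 6779 FPKM over 3 markers of the ileal enterocyte, led by the bile acid binding protein Fabp6, where jejunum 27 and 28 had 26.97 and 5.85 FPKM. Ileum 24 had 265 FPKM, against 6651 and 8181 FPKM in ileum 25 and 27. By overall profile the nearest library to jejunum 24 was ileum 27, and the nearest to ileum 24 was jejunum 27; jejunum 27 and 28 in turn lay nearest to ileum 24. Without both libraries the subunits described below summed to 16460 FPKM in jejunum and 14070 FPKM in ileum, with 2 libraries each.

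Taken as a sum, the transcripts of the chain stood highest in the duodenum. The 84 genes added up to 24080 ± 4443 FPKM in duodenum, 15220 ± 2271 in jejunum, 14660 ± 1175 in ileum, 15620 ± 803 in large intestine and 11140 ± 388 in liver (SD, n = 3 each). The duodenum thus held 2.16 times the liver sum and the other sections 1.32 to 1.40 times. The difference was uneven over the complexes, since the complex IV sum in duodenum was 2.81 times that in liver and the complex I sum 1.74 times. In every complex the 3 duodenum libraries lay above all other libraries. Among the duodenum libraries number 28 was the highest in each complex and number 27 the lowest. The spread within a tissue was widest there, with a median coefficient of variation over the members of 18.4% in duodenum, 13.9% in jejunum, 8.68% in ileum, 6.13% in large intestine and 4.71% in liver. Part of the sum depends on how a library is scaled, because the FPKM of all genes together came to 428494 to 534555 in duodenum, 384287 to 389243 in large intestine and 519437 to 537031 in liver libraries. As a share of its own library's FPKM the chain made up 4.97% ± 0.376 in duodenum, 2.90% ± 0.526 in jejunum, 2.74% ± 0.220 in ileum, 4.03% ± 0.207 in large intestine and 2.11% ± 0.0381 in liver. Without jejunum 24 and ileum 24 the share was 3.17% in jejunum and 2.63% in ileum. In a bulk sample, fewer cells of a type and less RNA per cell cannot be told apart.

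**Figure D1:**
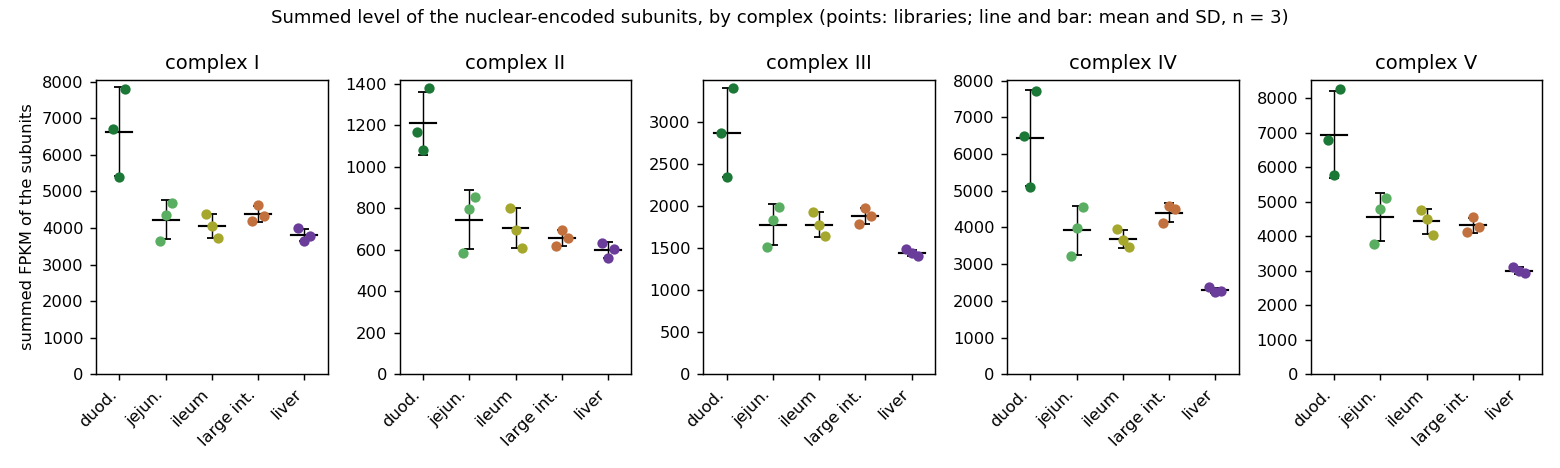
Summed FPKM of the subunits of each complex in every library (points), with the mean and SD of 3 libraries per tissue (line and bar). The vertical axis starts at 0 in each panel and its scale differs between panels. The duodenum libraries lie above all others in each complex, and the liver libraries are lowest in complexes III, IV and V.

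Duodenum against liver gave the broadest difference. Of the 81 tested members 79 were higher in duodenum, where 63.9% of all genes were, and 0 were lower, where 16.5% of all genes were. At an unadjusted p under 0.05 limma also gave 79 higher and 0 lower. Among the 79 are Cox4i2, Cox6b2 and Cox8b, whose direction was fixed by the filter, which they passed through intestinal libraries alone. The members' median log2 difference was 1.001, against 0.58 over all genes, and 67 of 81 members lay above the all-gene median. The 2 members not called were Ndufa4 (705 ± 160 FPKM in duodenum and 537 ± 23.8 in liver, adjusted p = 0.0903 in limma) and its low-level relative Ndufa4l2 (1.63 ± 0.159 and 1.22 ± 0.126 FPKM). Exocrine pancreas markers summed to 238 FPKM in duodenum 28, against 18.1 and 6.76 FPKM in duodenum 24 and 27, and their part in the duodenum values was not tested. With duodenum 28, or any other single library, left out, between 76 and 80 members were called higher. The share of all genes called higher was not counted there.

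Within complex I, 35 of 37 genes were called higher in duodenum than in liver, with a median of 0.86. The largest difference was that of Ndufa12, a small accessory subunit, at 104, 82.4 and 115 FPKM in duodenum libraries, against 34.9, 32.0 and 34.4 FPKM in liver libraries. The groups did not overlap and the log2 difference was 1.53 ± 0.13 (SE, limma adjusted p = 8.15e-08). The most abundant complex I symbol over all libraries was Ndufa4, at a mean of 495 FPKM. Its protein was first listed with complex I and has since been assigned to complex IV. Of the catalytic core, Ndufs1, an iron-sulphur subunit, ranged from 39.1 to 58.2 FPKM over the 15 libraries.

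All 4 genes of complex II, the succinate dehydrogenase that also serves the tricarboxylic acid cycle, were called higher in duodenum. Sdhd, a membrane anchor of the complex, had 354, 324 and 451 FPKM in duodenum libraries, against 146, 135 and 142 FPKM in liver libraries. Its log2 difference was 1.40 ± 0.19 (SE, limma adjusted p = 9.54e-06), the largest of the 4. The smallest was that of Sdha, the flavoprotein that oxidises succinate, at 0.39 ± 0.11, and at -0.21 with median-of-ratios scaling (limma adjusted p = 0.188). All 8 genes of complex III were higher in duodenum as well. Uqcrh, the hinge protein next to cytochrome c1, led them with 733, 532 and 858 FPKM in duodenum libraries, against 235, 252 and 224 FPKM in liver libraries, a log2 difference of 1.55 ± 0.16 (SE, limma adjusted p = 6.84e-07). Uqcrq, a small subunit near the ubiquinone site, differed least at 0.44 ± 0.17, and at -0.15 with median-of-ratios scaling (limma adjusted p = 0.488).

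Complexes IV and V showed the larger medians, 1.35 over 15 tested genes and 1.13 over 17, and every one of these genes was called higher in duodenum. The complex IV count and median include Cox4i2, Cox6b2 and Cox8b, which passed the filter through intestinal libraries alone. The direction of these calls was thus fixed in advance. Cox4i1, the largest nuclear-encoded subunit of cytochrome oxidase and the most abundant of complex IV at a mean of 796 FPKM, had 1305, 933 and 1558 FPKM in duodenum libraries, against 465, 435 and 425 FPKM in liver libraries. The difference was 1.49 ± 0.17 (SE, limma adjusted p = 2.54e-06). In complex V the largest difference was that of Atp5o, the stalk subunit that gives oligomycin sensitivity, at 284, 249 and 333 FPKM in duodenum libraries, against 71.8, 73.2 and 68.8 FPKM in liver libraries. The log2 difference of Atp5o was 1.99 ± 0.15 (SE, limma adjusted p = 2.46e-08), and no intestinal library reached as low as the liver. Atp5l, which encodes subunit g of the membrane part, came next at 1.70 but with a large spread: its 3 duodenum libraries had 161, 158 and 395 FPKM. The 2 genes of lowest level in complex V, Atp5s and Atp5sl, encode factors that are not core subunits of the enzyme.

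In the deposited FPKM the other sections differed less from liver, and there the members' counts did not exceed the background. In jejunum 51 of 81 members were called higher than in liver and 0 lower, where 69.6% and 15.1% of all genes were. In ileum 46 were higher and 0 lower, where 67.3% and 16% of all genes were. In large intestine 55 were higher and 3 lower, where 71.4% and 14.3% of all genes were. Without jejunum 24 and ileum 24 the higher calls numbered 59 in jejunum and 41 in ileum, where 67% of all genes were called higher in each. At an unadjusted p under 0.05 limma gave 51, 49 and 55 higher and 0, 0 and 3 lower in these sections, in the same order. The members' median log2 difference was 0.46 for jejunum, 0.40 for ileum and 0.49 for large intestine, each below the all-gene medians of 0.73, 0.68 and 0.83.

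These 4 comparisons share the liver libraries, and their levels hinge on the scaling. Median-of-ratios scaling brought the all-gene medians to between 0.17 and 0.21 and the members' medians to 0.41 for duodenum, -0.25 for jejunum, -0.26 for ileum and -0.31 for large intestine. The members then called higher numbered 47, 5, 5 and 4, where 43.9%, 46.8%, 46.3% and 46.7% of all genes were. Those called lower numbered 0, 31, 28 and 35, where 30.5%, 30.9%, 31.2% and 31.1% of all genes were. Relative to the all-gene median the members stood at 0.43, -0.28, -0.27 and -0.33 in the deposited FPKM and at 0.24, -0.47, -0.46 and -0.52 with median-of-ratios scaling, always from duodenum to large intestine. Quantile normalization turned the relative values of the last 3 sections positive, at 0.38, 0.31 and 0.56. The members' higher calls there then exceeded the background. They numbered 55, 49 and 60 of 81, where 37.5%, 36.9% and 39.1% of all genes were called higher. A higher call in duodenum held under all 4 scalings (deposited FPKM, median-of-ratios, quantile, equal sums) for 46 of the 81 members. Over all genes this was not counted, but it can be no more than the 36% called higher with quantile normalization. Higher calls in jejunum and in ileum held under all 4 for Atp5o, Cox4i2, Cox6b2, Cox7a1 and Cox8b, and in large intestine for the last 4 of these. Cox4i2, Cox6b2 and Cox8b passed the filter through intestinal libraries alone, so their direction was fixed in advance.

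**Figure D2:**
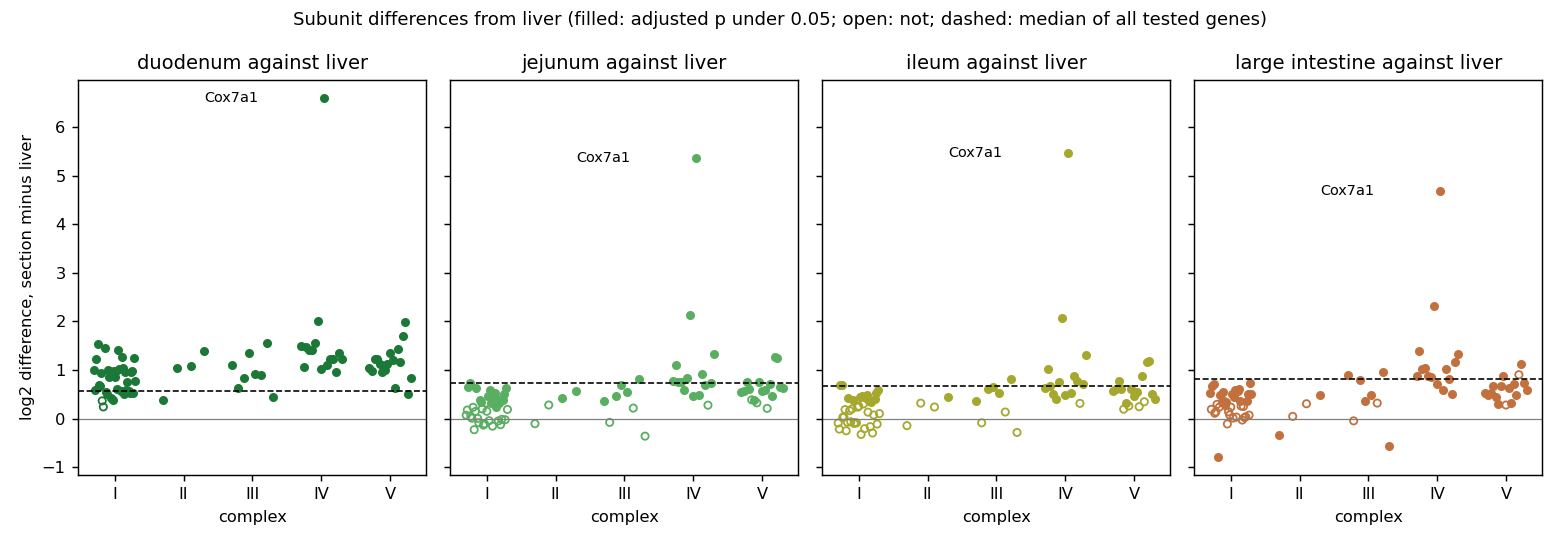
Log2 difference (section minus liver, log2(FPKM + 1) scale) of each tested subunit, by complex, for the 4 sections. Filled points have an adjusted p under 0.05 and open points do not, and the dashed line marks the median of all 13757 tested genes. In duodenum 67 of 81 points lie above the dashed line, in each other section 16 do, and Cox7a1 stands alone between 4.67 and 6.60.

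A share within the chain does not change when a library is multiplied by a constant, and by this measure the sections differed from liver in the balance of the complexes. Quantile normalization is no such multiplication and moved some complex shares by their SD or more. The shares below are those of the deposited FPKM. Complex I made up 27.6% ± 0.324 of the summed FPKM in duodenum, 27.8% ± 0.671 in jejunum, 27.7% ± 0.0321 in ileum, 28.04% ± 0.259 in large intestine and 34.2% ± 0.435 in liver. The 12 intestinal libraries lay between 27.2% and 28.6% and the 3 liver libraries between 33.7% and 34.4%, with no overlap. Complex IV ran the other way, with 24.9% to 28.8% in intestinal libraries against 20.4% to 20.7% in liver libraries. Complex III was lower in the sections by a small margin, at 11.6% to 12.2% in intestinal libraries against 12.8% to 13.2% in liver libraries. Complexes II and V overlapped between gut and liver. Large intestine had the lowest share of complex II at 4.201% ± 0.0243, against 4.78% to 5.06% in the small intestinal sections and 5.37% ± 0.202 in liver. With 3 libraries a tissue an exact two-sided permutation test cannot go below p = 0.1, so the shares are given without a test.

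The balance did not rest on one gene. Without Cox7a1 the complex IV share was 25.4% in duodenum, 24.8% in jejunum, 24.2% in ileum, 27.7% in large intestine and 20.5% in liver. With Ndufa4 counted under complex IV, complex I made up 24.2% to 26.6% in intestinal libraries against 28.9% to 29.6% in liver libraries, and complex IV 27.96% to 31.0% against 25.3% to 25.6%. Neither set of ranges overlapped. Without jejunum 24 and ileum 24, complex I made up 27.4% in jejunum and 27.7% in ileum, and complex IV 25.9% and 25.3%.

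**Figure D3:**
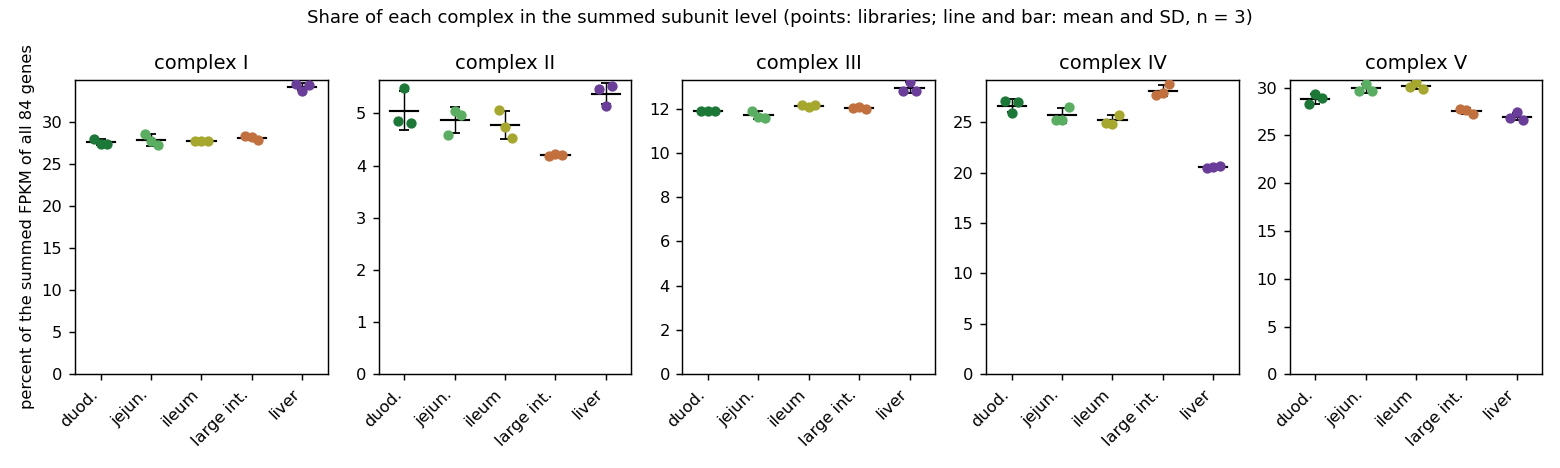
Share of each complex in the summed FPKM of all 84 genes, in percent, in every library (points) with the mean and SD of 3 libraries per tissue (line and bar); the axes start at 0. Liver libraries lie above all intestinal ones in complex I (33.7% to 34.4%) and below them in complex IV (20.4% to 20.7%).

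The largest difference of any member was that of Cox7a1, the isoform of cytochrome oxidase subunit VIIa that is known from heart and skeletal muscle, while its partner Cox7a2 is the form of liver and most other tissues. Cox7a1 had 385, 329.5 and 544 FPKM in duodenum libraries, 113, 201 and 230.5 in jejunum, 214, 208 and 146 in ileum and 102, 119 and 102 in large intestine, against 2.58, 4.58 and 2.79 in liver. All 12 intestinal libraries lay far above the liver libraries. The log2 differences from liver were 6.60, 5.37, 5.47 and 4.67 from duodenum to large intestine, each with an SE of 0.27 and a limma adjusted p of at most 1.41e-09. In linear FPKM the means were 126-fold, 54.8-fold, 57.1-fold and 32.4-fold those of liver. Cox7a2 differed far less, with 314 ± 52.2 FPKM in duodenum and 144 ± 7.31 FPKM in liver. Of the FPKM of Cox7a1 and Cox7a2 together, Cox7a1 held 56.9% ± 2.43 in duodenum, 46.4% ± 5.71 in jejunum, 47.3% ± 2.26 in ileum, 33.0% ± 0.794 in large intestine and 2.24% ± 0.644 in liver. Without jejunum 24 the share in jejunum was 49.6%, and without ileum 24 that in ileum was 47.1%. The order of the sections for this share was thus duodenum, then ileum and jejunum, whose difference is within their spread, then large intestine.

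Muscle and epithelial markers are set beside Cox7a1 here, without a test. The summed level of 10 smooth muscle markers was 565 to 687 FPKM in duodenum, 658 to 1195 in jejunum, 599 to 647 in ileum, 2417 to 3537 in large intestine and 19.9 to 22.4 in liver, so that large intestine had the most of these markers and the least Cox7a1 of the sections. The sum of 8 striated muscle markers was 14.5 to 18.04 FPKM in duodenum, 8.865 to 11.6 in jejunum, 8.095 to 10.6 in ileum, 10.35 to 53.5 in large intestine and 0.0812 to 0.2875 in liver. The median of this sum was highest in duodenum (16.2 FPKM) and lowest in liver (0.161 FPKM), the same extremes as for Cox7a1. The order between them was not the same, since large intestine came next to duodenum at 14.97 FPKM. Of the 8 markers 2 passed the filter for testing. Large intestine 27, with the most striated muscle marker RNA, had 102 FPKM of Cox7a1, level with the other libraries of its tissue. Ckm and Mb were at 0 in all liver libraries and no more than 1 of the 8 genes was at 0 throughout any section. The sum of 9 epithelial markers ran at 13160 to 15300 FPKM in duodenum, 5207 to 10650 in jejunum, 6504 to 12260 in ileum, 3311 to 4383 in large intestine and 97.4 to 112 in liver, but its members did not move together. Apoa4, an apolipoprotein of absorptive cells, averaged 7817 FPKM in duodenum, 2397 in jejunum, 1292 in ileum, 0.845 in large intestine and 41.5 in liver, while Epcam, a pan-epithelial adhesion molecule, averaged 572 FPKM in duodenum, 603 in jejunum, 744 in ileum, 614 in large intestine and 0.843 in liver. The part of any of these cell types in the Cox7a1 values was not tested.

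**Figure D4:**
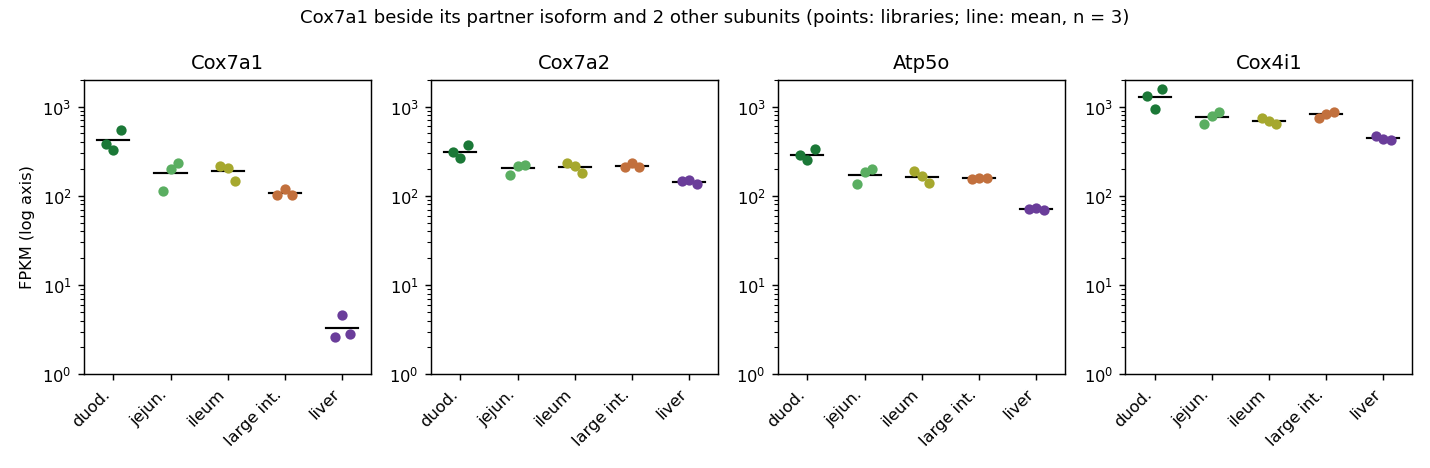
FPKM of Cox7a1, its partner isoform Cox7a2, Atp5o and Cox4i1 in every library (points) on a log axis, with the mean of 3 libraries per tissue (line). Cox7a1 falls to between 2.58 and 4.58 FPKM in liver, against 101.5 or more in every intestinal library, while the other genes stay above 68 FPKM in liver.

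The promoters of the isoform pair and of Atp5o are printed because these genes carry the largest differences from liver of complexes IV and V and the contrast between the isoforms. Each window runs from 250 bases before to 50 bases after the start in RefSeq (GRCm38.p6), 5′ to 3′ on the gene's own strand. Cox7a1 is at chr7:30183921-30184220 on the plus strand, Cox7a2 at chr9:79759804-79760103 on the minus strand and Atp5o at chr16:91931581-91931880 on the minus strand. Capitals mark a match to GCGCANGCG or its reverse complement, the letters searched for nuclear respiratory factor 1 (NRF1), a known activator of many chain genes.
Cox7a1: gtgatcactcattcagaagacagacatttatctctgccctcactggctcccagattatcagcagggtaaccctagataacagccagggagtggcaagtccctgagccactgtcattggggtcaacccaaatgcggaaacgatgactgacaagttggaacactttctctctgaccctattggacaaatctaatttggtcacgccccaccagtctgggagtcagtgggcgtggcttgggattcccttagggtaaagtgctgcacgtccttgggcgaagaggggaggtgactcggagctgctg
Cox7a2: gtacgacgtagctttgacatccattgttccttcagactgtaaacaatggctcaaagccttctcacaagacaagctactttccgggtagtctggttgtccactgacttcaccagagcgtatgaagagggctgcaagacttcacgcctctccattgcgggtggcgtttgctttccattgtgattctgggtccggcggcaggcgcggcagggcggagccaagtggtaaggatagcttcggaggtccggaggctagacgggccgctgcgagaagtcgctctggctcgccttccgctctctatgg
Atp5o: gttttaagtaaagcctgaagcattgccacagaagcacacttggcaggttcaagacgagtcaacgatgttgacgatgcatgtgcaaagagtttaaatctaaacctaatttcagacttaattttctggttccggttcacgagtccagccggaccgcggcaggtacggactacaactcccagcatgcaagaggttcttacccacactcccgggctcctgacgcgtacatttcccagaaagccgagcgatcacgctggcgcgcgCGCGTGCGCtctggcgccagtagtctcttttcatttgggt
The Atp5o window has 1 match, whose first base is 10 bases past the start, and the windows of Cox7a1 and Cox7a2 have none. In all, 4 letter strings were searched on both strands. NRF1's was found in 20 of the 69 members with a RefSeq promoter (29%), against 7.03% of all 27025 genes. CCGGAAG, for the ETS family that includes GABP, was found in 23.2% of members and 9.93% of all genes. AAGATGGCG, for YY1, was found in 11.6% and 1.64%, and TCAAGGTCA, for the estrogen-related receptors, in 2.9% and 0.466%. Any of these strings occurred in 52.2% of members and 16.9% of all genes. Sdhd held 3 of them. The members' windows were also richer in G and C, at a median of 58.3% against 53.3% over all genes, and the match counts were not adjusted for this. The strings can also share bases, since the AAG that ends CCGGAAG opens AAGATGGCG, and the GCG that ends AAGATGGCG can open GCGCANGCG. A match of letters shows neither binding nor use.

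The other tested isoforms of complex IV that are known from muscle, lung or testis were also higher in every section than in liver, but at very low levels. None of them reached 1 FPKM in a liver library, so they passed the filter through intestinal libraries alone. Their direction was thus fixed by the filter, and their p-values add no support to it. Cox6b2, known from testis, had 4.38, 3.99 and 5.73 FPKM in duodenum libraries, against 0.331, 0.652 and 0.261 FPKM in liver libraries, and log2 differences of 2.01, 2.12, 2.08 and 2.31 from duodenum to large intestine (limma adjusted p of at most 1.1e-07). Beside its partner Cox6b1 it made up 0.570% to 1.17% of the pair in the sections and 0.151% in liver. Cox4i2, a lung and smooth muscle isoform, ranged from 0.992 to 2.11 FPKM in intestinal libraries and from 0.0446 to 0.140 FPKM in liver libraries. Cox8b, a heart and muscle isoform, ranged from 0.424 to 2.30 FPKM in intestinal libraries and was listed at 0 in all 3 liver libraries, so no fold is given. These 3 genes were thus detected at levels far below their common partners, unlike Cox7a1.

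The c subunit of the ATP synthase ring is made from 3 genes, Atp5g1, Atp5g2 and Atp5g3, that encode the same mature protein. Atp5g3 was the most abundant gene of complex V at a mean of 877 FPKM and supplied 81.0% ± 0.735 of the set in duodenum, 78.1% ± 2.46 in jejunum, 78.1% ± 0.778 in ileum, 71.2% ± 0.174 in large intestine and 77.6% ± 0.612 in liver. Large intestine had the largest Atp5g1 share of all tissues, 15.04% ± 0.534 of the set, against 10.2% to 10.9% in the small intestinal sections and 12.5% ± 0.526 in liver. Under quantile normalization this order of large intestine and liver turned round, at 12.6% and 14.5%. Atp5g1 was called higher in large intestine than in ileum, at 129, 154 and 155 FPKM in large intestine libraries against 120, 106 and 102 FPKM in ileum libraries (log2 difference 0.41, limma adjusted p = 0.0483). For Atp5g3 the same comparison gave -0.19 with a limma adjusted p of 0.448, and 0.46 with quantile normalization.

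Along the gut, the step between duodenum and jejunum was the main one. Of the 81 members 73 were called lower in jejunum than in duodenum and 0 higher, where 7.17% of all genes were lower and 18% higher; at an unadjusted p under 0.05 limma gave 74 lower and 0 higher. The members' median was -0.61, against 0.15 over all genes. The lower calls covered 36 of 37 genes of complex I, all 4 of complex II, all 8 of complex III, 12 of 15 of complex IV and 13 of 17 of complex V. The 3 largest were those of Cox7a1 at -1.23, Ndufa1 at -0.93 and Sdhd at -0.83. Ndufa1, a membrane-arm subunit of complex I, had 119, 171 and 185 FPKM in jejunum libraries, against 307, 243 and 354.5 FPKM in duodenum libraries, which did not overlap (limma adjusted p = 0.0115).

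The count of these calls depended on single libraries more than the direction did. It was 5 without duodenum 28, 10 without jejunum 24, 47 without duodenum 24 and 20 without both jejunum 24 and ileum 24, and 62 to 74 without one of the others. The share of all genes called lower moved with it, to 0.516%, 0.778%, 3% and 1.9% in the first 4 of these. Leaving out these libraries left 77 or 78 of the 81 members with a negative difference, and the median ran between -0.49 and -0.75. Of the 20 calls without jejunum 24 and ileum 24, 11 were in complex I, among them Ndufa12, Ndufc1 and Ndufb7. All 4 scalings kept the lower call for 51 members. Over all genes this was not counted, but it can be no more than the 6.04% called lower with quantile normalization. Jejunum 24 had 1195 FPKM over the smooth muscle markers, where jejunum 27 and 28 had 658 and 863 FPKM. Its epithelial markers summed to 5207 FPKM, where jejunum 27 and 28 had 10020 and 10650 FPKM, a gap carried mostly by Apoa4 (181 FPKM, where jejunum 27 and 28 had 2963 and 4046) and Fabp2, while Epcam was level at 626, 585 and 597 FPKM. Their part in the member values was not tested.

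With the libraries grouped as labelled, no gene was called between ileum and jejunum, so this comparison cannot show that the members were level. The 3 ileal enterocyte markers were not called either, at a median log2 difference of 2.02. In this comparison 0 members were called in either direction, as were 0% of all genes higher and 0% lower; at an unadjusted p under 0.05 limma gave 0 members higher and 2 lower, and 291 and 636 genes. The members' median was -0.04. Without jejunum 24 and ileum 24 the median was -0.21 and Ndufa10, an accessory subunit of complex I named after its value was seen, was the 1 member called lower (-0.55, limma adjusted p = 0.0197), where 1.69% of all genes were lower and 1.73% higher.

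The step between large intestine and ileum depended on the scaling. In large intestine 11 members were called higher than in ileum and 2 lower, where 33.8% and 14.1% of all genes were, and the median of 0.11 was close to the 0.14 of all genes. The higher ones were Ndufa1, Ndufa7, Ndufa10, Ndufb10, Ndufs1 and Ndufv3 of complex I, Uqcr10 of complex III, Cox4i2, Cox5b and Cox8a of complex IV, and Atp5g1 of complex V. The lower ones were Cox7a1 and Ndufa4. Leaving out 1 library gave 5 to 13 higher calls, with 6 without ileum 25 or without ileum 27 and 5 without large intestine 25 or without large intestine 27. It gave 0 to 3 lower calls, with 0 without ileum 24, ileum 25 or large intestine 24 and 1 without large intestine 27. The shares of all genes called with a library left out were not counted here, so a general loss of calls cannot be told apart. With equal sums 72 members were higher and 0 lower, where 72.7% and 7.01% of all genes were. With quantile normalization 39 were higher and 1 lower, where 27.8% and 21.4% of all genes were, and with median-of-ratios scaling 2 and 4, where 25.3% and 20% were. Among the members Ndufa7 alone kept its higher call under all 4 scalings, which was not counted over all genes.

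Ndufa7, an accessory subunit of complex I, was one of 6 members with their highest mean in large intestine. It had 156, 171 and 157 FPKM in large intestine libraries, against 114, 108 and 95.4 FPKM in ileum libraries. The log2 difference was 0.61 ± 0.13 (SE, limma adjusted p = 0.00192) and the libraries did not overlap. Uqcr10, a small subunit of complex III, had 367, 387 and 360.3 FPKM in large intestine libraries, against 269.5, 258 and 241 FPKM in ileum libraries (log2 difference 0.54, limma adjusted p = 0.00531).

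In the deposited FPKM 3 members were called lower in large intestine than in liver, where 14.3% of all genes were. They were Ndufa4, Uqcrq and Sdha. Ndufa4 had 244, 358 and 345 FPKM in large intestine libraries, against 562, 514 and 535 FPKM in liver libraries, a log2 difference of -0.78 ± 0.19 (SE, limma adjusted p = 0.00154). Uqcrq had 227, 284 and 266 FPKM in large intestine libraries, against 394, 374 and 371 FPKM in liver libraries (-0.56 ± 0.17, limma adjusted p = 0.00752). Sdha had 128, 141 and 129 FPKM in large intestine libraries, against 184, 152 and 170.3 FPKM in liver libraries (-0.34 ± 0.11, limma adjusted p = 0.0133). In none of the 3 did the libraries of large intestine and liver overlap. With the FPKM of every library brought to the same sum, 0 members were called lower in large intestine than in liver and the Sdha difference was 0.15. With quantile normalization none of the 3 was called, at -0.28 for Ndufa4, -0.20 for Uqcrq and -0.14 for Sdha. With median-of-ratios scaling they were at -1.61, -1.38 and -1.16 and did not stand alone. There 35 members were called lower than in liver, where 31.1% of all genes were.

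**Figure D5:**
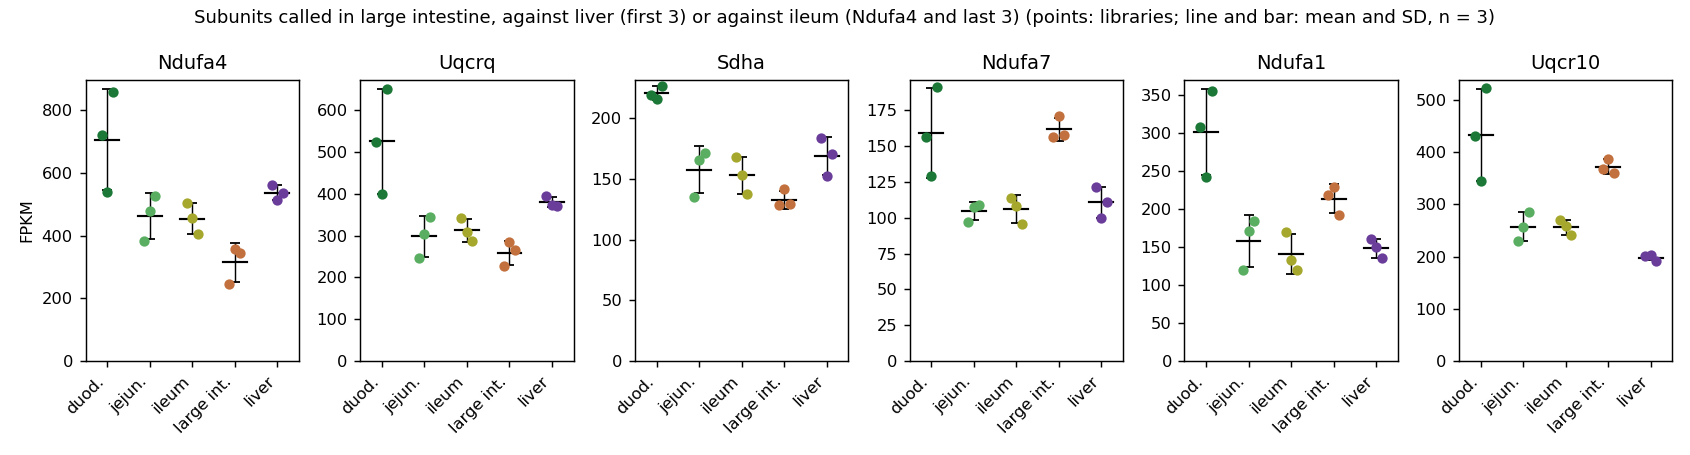
FPKM of Ndufa4, Uqcrq, Sdha, Ndufa7, Ndufa1 and Uqcr10 in every library (points), with the mean and SD of 3 libraries per tissue (line and bar); the axes start at 0. The first 3 genes are lowest in large intestine, where Ndufa4 has 244 to 358 FPKM, and Ndufa7 has 156 to 171 FPKM there, against 95.4 to 114 FPKM in ileum.

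Over the 4 sections together, an F test called 76 of 81 members, where 65.9% of all genes were called. The 5 not called were Atp5l, Atp5s, Cox6b2, Cox8b and Ndufa4l2, of which all but Atp5l are of low level. Cox7a1 had the widest range of section means at 1.93 on the log2 scale, followed by Ndufa4 at 1.15 and Ndufa1 at 1.09. By highest mean, 75 of the 81 members peaked in duodenum, against 15.3% of all genes, and 64 were lowest in liver, against 70.8% of all genes. The other 6 peaked in large intestine, where 45.9% of all genes did: Atp5s, Cox4i2, Cox6b2, Cox8b, Ndufa4l2 and Ndufa7. All of these but Ndufa7 are of low level. The count peaking in duodenum was 66 with median-of-ratios scaling and 62 with equal sums. The count lowest in liver was 65 with equal sums but 12 with median-of-ratios scaling, where 40 members were lowest in large intestine and 12 highest in liver. Under these other scalings the shares of all genes were not counted.

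Genes that work beside the chain were compared in the same way. Of 9 components that the symbol rule leaves out, 6 were called higher and 3 lower, beside 63.9% and 16.5% of all genes. Atpif1, the inhibitor that holds the ATP synthase when the gradient fails, had 649, 541 and 774 FPKM in duodenum libraries, against 20.0, 16.8 and 20.9 FPKM in liver libraries. Its log2 difference of 5.01 (limma adjusted p = 1.48e-12) was larger than that of any member but Cox7a1, and it was 4.38, 4.39 and 3.78 in jejunum, ileum and large intestine. The 3 lower ones included Etfb and Etfdh, which bring electrons from fatty acid oxidation to ubiquinone: Etfdh had 59.6 ± 5.24 FPKM in duodenum and 115 ± 12.7 FPKM in liver, a difference of -0.94.

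Of 14 tricarboxylic acid cycle genes 11 were higher and 1 lower in duodenum than in liver, beside 63.9% and 16.5% of all genes. Mdh2, mitochondrial malate dehydrogenase, led at 986, 1015 and 1154 FPKM in duodenum libraries, against 126, 122 and 119 FPKM in liver libraries (log2 difference 3.09, limma adjusted p = 1.55e-07), and Suclg2, the GTP-forming subunit of succinyl-CoA ligase, was the lower one at -0.93. Mdh2 was also lower in jejunum than in duodenum at -1.10, as were 8 more genes of the cycle and 7.17% of all genes. Of 38 tested assembly factors, 21 were higher and 6 lower in duodenum than in liver, shares no larger than the 63.9% and 16.5% of all genes, with a median of 0.37 against 0.58 over all genes. Cox14, needed to build complex IV, was the highest of them at 1.65. Sco2, a copper chaperone of complex IV, was the lowest in large intestine, at 6.46 ± 0.999 FPKM against 46.1 ± 3.72 FPKM in liver, a difference of -2.67 (limma adjusted p = 2.59e-06).

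Of 15 regulators of mitochondrial biogenesis 9 were higher in duodenum than in liver and 0 lower, in a comparison where 63.9% and 16.5% of all genes were. Esrra, an orphan nuclear receptor that drives many chain genes, had 97.4 ± 11.9 FPKM in duodenum, 73.7 ± 11.9 in jejunum, 83.8 ± 6.08 in ileum, 48.5 ± 2.83 in large intestine and 8.50 ± 2.03 in liver, with a log2 difference of 3.39 between duodenum and liver (limma adjusted p = 1.39e-10). Its coactivator Ppargc1a differed by 2.39 in the same comparison. No regulator was called between jejunum and duodenum in either direction, where 7.17% of all genes were lower in jejunum and 18% higher. Of 14 carriers and import proteins 10 were higher and 1 lower in duodenum than in liver, near the 63.9% of all genes called higher. Slc25a4, the muscle form of the ADP/ATP carrier, had 38.3 ± 1.74 FPKM in duodenum and 4.36 ± 0.750 FPKM in liver. Slc25a4 was highest in large intestine, at 75.1 ± 18.1 FPKM, the section with the least Cox7a1. Of 3 uncoupling proteins in the table Ucp2 passed the filter, and it had 159.8 ± 7.96 FPKM in duodenum and 5.37 ± 0.180 FPKM in liver, a difference of 4.66.

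Some members lie near each other in the genome. Among those within 200000 bases of each other (mm10) were Atp5d, Ndufs7 and Uqcr11 on chromosome 10, with gaps of 103633 and 146204 bases, and Ndufs8 and Ndufv1 on chromosome 19, with a gap of 94730 bases.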

How the data were processed

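The authors deposited FPKM per gene for 15 libraries. Per the submitters' processing notes the tools were CASAVA, FastQC, TopHat2 2.0.3, Bowtie 0.12.8, SAMtools 0.1.18 and Cufflinks 2.0.0 with mm10, and a TruSeq kit made the libraries, per the labels. FPKM keep no counts, so the depth is unknown.

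From these values records sharing a symbol were summed, except 27 rows with a date in place of a symbol, and 0 columns lacked a sample. Genes at 1 FPKM or more in at least 3 libraries were fitted in limma 3.58.1 (R 4.3.3, statmod 1.5.0) on log2(FPKM + 1), with 1 mean per tissue over all 15 libraries and eBayes with trend and robust settings. Benjamini-Hochberg adjustment ran over all 13757 genes within each comparison, for each section against liver and each against the section before it, and an F test compared the 4 sections. The members, gene lists and tests were chosen with earlier results of these data known. Named members are the 3 largest called differences each way per comparison, called members with a log2 difference of at least 1 in size, members of isoform sets, and the most and least abundant of each complex; of each other list, the largest called gene each way. Etfb, Esrra's coactivator Ppargc1a, Ndufs1, Ndufc1, Ndufb7 and the further calls between large intestine and ileum were named after their values were seen.

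Alternatives were median-of-ratios, quantile, equal-sum and median-subunit scaling, a pseudocount of 0.1, no filter, records kept apart, a replicate block, and libraries left out. On simulated data in which 200 of 13757 genes were changed, the fit for duodenum against liver recovered 59% at a log2 change of 0.6 and 94% at 1.2, with 15 false calls. The simulated noise was normal and independent between genes. In the data 63.9% of all genes were called higher and 16.5% lower, so these figures do not give the recovery there. Promoters came from RefSeq GRCm38.p6, where 69 of 84 members matched. Figures were drawn in Python 3.11.15 with matplotlib 3.10.9.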

Additional observations from a re-analysis of the deposited data

Results flagged for a closer look

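In the deposited FPKM, Sdha and Uqcrq each differed from liver in opposite directions in 2 sections. For Sdha the log2 difference from liver was -0.34 in large intestine and 0.39 in duodenum, and the difference between these sections was -0.73 (limma adjusted p = 0.000106). For Uqcrq it was -0.56 in large intestine and 0.44 in duodenum, and the difference between the sections was -1.0 (limma adjusted p = 0.000203). Both comparisons with liver share the same 3 liver libraries. In each gene all 3 large intestine libraries lay below all 3 liver libraries and all 3 duodenum libraries above them. The opposition to liver depended on the scaling. With median-of-ratios scaling Sdha was at -1.16 in large intestine and -0.21 in duodenum and Uqcrq at -1.38 and -0.15, and with equal sums Sdha was at 0.15 and 0.53 and Uqcrq at -0.07 and 0.58. The difference between large intestine and duodenum was negative under all 4 scalings, from -0.36 to -0.95 for Sdha and from -0.62 to -1.22 for Uqcrq, with a limma adjusted p of at most 0.00886. The cause was not tested.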

How the results depend on the processing

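Of 1320 recomputed tests of the 88 named differences, 1195 kept their direction and side of the threshold, 105 lost the call, 4 gained one and 16 changed sign. In duodenum against liver these were, scaled to the median subunit, Cox6c (-0.0135), Ndufa1 (-0.0245), Ndufa8 (-0.0226), Ndufb8 (-0.0013), Ndufa4 (-0.6646), Ndufa4l2 (-0.3488), Sdha (-0.6411) and Uqcrq (-0.5909), with median-of-ratios scaling Ndufa4 (-0.2283), Ndufa4l2 (-0.1141), Sdha (-0.2067) and Uqcrq (-0.1549), and with quantile normalization Ndufa4l2 (-0.4452). In large intestine they were Sdha against liver with equal sums (0.1481) and Atp5g3 against ileum with quantile normalization (0.4601) and equal sums (0.3125). The cause was not tested.
Counts that moved by over 1.5 times follow, as members higher and lower than in liver in duodenum, jejunum, ileum and large intestine. Median-of-ratios scaling gave 47, 5, 5 and 4 higher and 0, 31, 28 and 35 lower, beside the all-gene shares given above. Scaling to the median subunit, which sets the members' median near 0 by construction, gave 20, 18, 17 and 21 higher and 21, 21, 20 and 18 lower. Of all genes 26.2%, 49.8%, 49.3% and 51.9% were then higher and 38%, 20.5%, 20.5% and 19.9% lower. Quantile normalization gave 1, 3, 9 and 3 lower, and equal sums 0, 1, 1 and 0. Of all genes 36.8%, 37.7%, 37.9% and 37.8% were lower with quantile normalization and 14.3%, 14.8%, 15.8% and 10.4% with equal sums.
In jejunum against duodenum the scaling to the median subunit gave 4 higher and 5 lower, where 73.8% and 1.02% of all genes were. It gave 29 members in the F test. The share of all genes in that F test was not counted, so the 29 cannot be read against a background. In large intestine against ileum median-of-ratios scaling gave 2 higher and 4 lower, quantile normalization 39 and 1, equal sums 72 and 0, and the median subunit 10 and 7. The all-gene shares were 18.2% and 12.7% with the median subunit and are given above for the others.
Without jejunum 24 and ileum 24 together 3 members were lower in ileum than in liver, 20 lower in jejunum than in duodenum, 1 lower in ileum than in jejunum and 1 lower in large intestine than in ileum. Of all genes 16%, 1.9%, 1.69% and 13.6% were lower in these comparisons, in the same order.
Leaving out 1 library gave 5 to 74 lower in jejunum against duodenum, 5 to 13 higher and 0 to 3 lower in large intestine against ileum, 0 to 1 lower in jejunum and 0 to 2 lower in ileum against liver. A tissue left with 2 libraries borrows its spread from the others. With 1 library left out, the all-gene shares were counted only for lower calls in jejunum against duodenum.
Quantile normalization moved the Cox7a1 share to 30.9% in large intestine and 3.77% in liver. It moved 33 of the other isoform and complex shares, counted per tissue, by their SD or more.
The replicate numbers were not shown to pair samples: for jejunum against duodenum the same-numbered correlations were 0.102, -0.049 and 0.086 and not every library correlated best with its own number, and for large intestine against ileum they were 0.131, -0.049 and -0.016. A replicate block gave 75, 35, 40 and 46 higher than in liver, 0, 1, 1 and 3 lower, 70 lower in jejunum than in duodenum, and 12 higher and 2 lower in large intestine than in ileum. Of all genes 63.7%, 68.7%, 65.5% and 69.6% were then higher than in liver and 15.5%, 14.5%, 15.6% and 14.1% lower. In jejunum against duodenum 6.32% were lower, and in large intestine against ileum 34.4% were higher and 14.2% lower.
A pseudocount of 0.1, no filter on low values and records kept apart moved no count by over 1.5 times.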
